A study of Homo sapiens with 29 samples.

Results

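The 15 genes described here encode small Cajal body-specific RNAs (scaRNAs), short guide RNAs of the cell nucleus, measured in the hepatoma cell line HepG2 cultured with or without CCL, a preparation of the herb Cratoxylum cochinchinense. They were chosen among small nucleolar RNA genes by symbol (SNORA, SNORD or SCARNA followed by a digit) and by a log2 value above 5 on at least 2 arrays. The probe table used here names 0 SNORA and 0 SNORD genes, so all members are SCARNA genes: 15 of the 23 SCARNA genes it names passed, among 6529 of 14884 named genes. The comparison was made on 13 arrays of CCL-treated cells, 3 each at 6, 12 and 18 h and 2 each at 24 and 48 h, and on 16 arrays of untreated cells, 3 each at 6, 12, 24 and 48 h and 2 each at 0 and 18 h. The labels give no dose or vehicle for CCL and number the arrays as sets 1, 2 and 3. They do not say that arrays came from separate cultures, so the p-values measure the spread between these arrays, which may be technical. Total RNA was labelled as biotinylated cRNA, and whether a probe set reads the mature scaRNA or an unspliced host transcript cannot be told apart in these values. In such bulk RNA, fewer cells and less RNA per cell cannot be told apart either.

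Most scaRNAs are cut out of introns of other genes, their hosts, and gather in Cajal bodies, where they guide the modification of spliceosomal small nuclear RNAs. Box C/D RNAs bind fibrillarin and direct 2′-O-methylation, whereas box H/ACA RNAs bind dyskerin and direct pseudouridylation. Several scaRNAs carry both kinds of box and are called mixed here. From this background knowledge, and not from the values, 5 members were classed as box C/D (SCARNA2, SCARNA7, SCARNA9, SCARNA9L and SCARNA17), 4 as mixed (SCARNA5, SCARNA6, SCARNA10 and SCARNA12) and 5 as box H/ACA (SCARNA4, SCARNA8, SCARNA16, SCARNA21 and SCARNA22), while SCARNA27 was left unassigned.

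The members were chosen by their level, so that level is a description. SCARNA17, SCARNA22, SCARNA12, SCARNA5, SCARNA7 and SCARNA16 exceeded log2 5 on all 29 arrays. SCARNA2, SCARNA8 and SCARNA27 did so on 16, 13 and 10 arrays, and SCARNA21 and SCARNA4 on 8 and 6, so their values lie near the threshold. The members nearest the threshold were SCARNA21, with a second-highest log2 value of 5.35, and SCARNA27, with 5.45, while SCARNA20 lay just outside it with 4.59. The other genes that did not pass were SCARNA1, SCARNA3, SCARNA11, SCARNA14, SCARNA15, SCARNA18 and SCARNA23. Each named SCARNA gene had 1 probe set.

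Arrays did not all share a common scale: an array's median over its probe sets was highest, at log2 3.39, in the CCL 18 h array of set 3 and lowest, at 2.29, in the untreated 18 h array of set 1. Both lie in the same comparison, where the median log2 fold change of all genes tested was 0.41. After the medians had been seen, 6 arrays were set aside for an alternative fit because they lay 0.11 to 0.70 from the nearest other array of their own group: CCL 6 h set 1, 18 h set 3, 24 h set 1 and 48 h set 1, and untreated 18 h set 1 and 24 h set 1. In groups of 2 arrays the lower one was taken, although the distance cannot say which of them is apart. The 12 h arrays, with medians of 2.51 to 2.54 in both arms, were kept, since they lay within 0.03 of another array of their group. The hepatocyte genes ALB, AFP, TTR, APOA1, APOB and FGB had mean log2 values of 7.15 to 11.93. The endothelial genes PECAM1, VWF and KDR had 2.19 to 2.73 and the fibroblast gene DCN 1.94, whereas the leukocyte list was split between CD14 at 2.94 and LYZ at 10.63. In the mean of the 5 times TTR and APOA1 fell (log2 differences -0.43 and -0.39, limma adjusted p = 0.0197 and 0.04). The other hepatocyte genes named were not called, with -0.06 for ALB and APOB, -0.14 for AFP and -0.16 for FGB. The cholangiocyte list was split. KRT19 rose (0.52, limma adjusted p = 0.00507), while SOX9, at a mean log2 value of 9.35, had -0.33 (adjusted p = 0.0689) and KRT7 lay at 2.51. The part of these genes in the results was not tested.

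SCARNA17, whose RNA (U91) guides modification of the U4 small nuclear RNA, starts where its RefSeq host SNHG22 starts. Its start region is shown because it was the only member that a RefSeq start window overlapped. It also had the highest mean effect of CCL among the members. The window is GRCh38.p14 chr18:49813773-49814072 on the plus strand, from RefSeq, with the 250 bases before the gene in lower case and its first 50 bases in capitals.
SCARNA17: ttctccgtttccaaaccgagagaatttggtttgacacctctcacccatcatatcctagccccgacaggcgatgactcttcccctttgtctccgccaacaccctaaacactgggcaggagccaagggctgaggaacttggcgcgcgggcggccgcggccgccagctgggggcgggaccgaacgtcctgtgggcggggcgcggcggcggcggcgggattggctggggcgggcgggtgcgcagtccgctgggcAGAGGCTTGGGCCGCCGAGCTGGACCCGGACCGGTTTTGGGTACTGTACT
Searched on both strands, the window held GGGCGG at 5 places, all on the plus strand, with first bases at -106, -83, -62, -28 and -24 from the start, and 1 CCAAT on the minus strand. It held no TATAAA and no TGATGA. Of 35116 RefSeq start windows of this length, 45.0% held GGGCGG, 34.6% CCAAT, 11.5% TATAAA and 10.9% TGATGA on either strand. A match is a run of letters and not a measured binding site.

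No scaRNA gene passed the test for a difference between CCL-treated and untreated cells when all arrays were used. With limma on the deposited log2 values, adjusted over all 6529 genes by the Benjamini-Hochberg method at 0.05, 0 of 15 members were called at 6 h, where 0.306% of all genes were, and 0 at 12 h, against 1.24%. At 18 h the counts were 0 of 15 and 12.5%, at 24 h 0 of 15 and 3.02%, and at 48 h 0 of 15 and 6.56%. In the mean of the 5 times, 0 of 15 members were called, against 24.6% of all genes. At an unadjusted p under 0.05 the members numbered 0, 0, 3, 0 and 0 at the successive times and 2 in the mean, against 8.07%, 11.4%, 32.5%, 14.2%, 25.6% and 36.1% of all genes. Leaving out the untreated 18 h array of set 3 gave 7 of 15 members at 18 h, but also 40.5% of all genes, near the members' share. That fit set the CCL arrays against 1 untreated array, that of set 1, which was assumed to vary like the other groups. In the mean, SCARNA2 was called without that array (27.7% of all genes) or without the CCL 24 h array of set 2 (27.2%), each of which also leaves 1 array in its group. SCARNA17 was called without the untreated 48 h array of set 2 (21.9%).

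SCARNA17 and SCARNA2 had the largest mean effects. In set order, SCARNA17 had log2 values of 8.87, 9.52 and 8.73 in CCL cells at 6 h, 9.28, 8.52 and 8.95 at 12 h, 9.57, 8.81 and 9.42 at 18 h, 8.96 and 8.70 at 24 h, and 8.60 and 8.98 at 48 h. In untreated cells it had 9.04, 9.32 and 8.20 at 6 h, 8.59, 8.76 and 8.47 at 12 h, 8.41 and 8.95 at 18 h (sets 1 and 3), 7.72, 8.42 and 8.23 at 24 h, and 8.43, 9.38 and 8.38 at 48 h. Only at 24 h did all CCL arrays lie above all untreated ones. Over the 5 times the log2 difference was 0.37 ± 0.16 (SE; 95% interval 0.04 to 0.70), a 1.29-fold difference that limma did not call (adjusted p = 0.0958). Without the 6 arrays set aside it was 0.29 (adjusted p = 0.348).

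SCARNA2, a guide for methylation of the U2 small nuclear RNA, lies in no other gene's RefSeq span. Its CCL arrays read 5.21, 5.85 and 5.21 at 6 h, 4.25, 4.95 and 4.90 at 12 h, 4.99, 4.86 and 5.81 at 18 h, 6.03 and 5.19 at 24 h, and 5.50 and 5.25 at 48 h. Untreated arrays read 5.59, 5.43 and 4.77 at 6 h, 4.46, 4.60 and 4.30 at 12 h, 4.19 and 5.42 at 18 h, 4.79, 5.54 and 4.78 at 24 h, and 5.02, 5.01 and 5.05 at 48 h. The groups overlapped at every time but 48 h. The mean log2 difference was 0.35 ± 0.15 (SE; 95% interval 0.03 to 0.66; limma adjusted p = 0.101). Without the same 6 arrays it was 0.05 (adjusted p = 0.834).

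**Figure D1:**
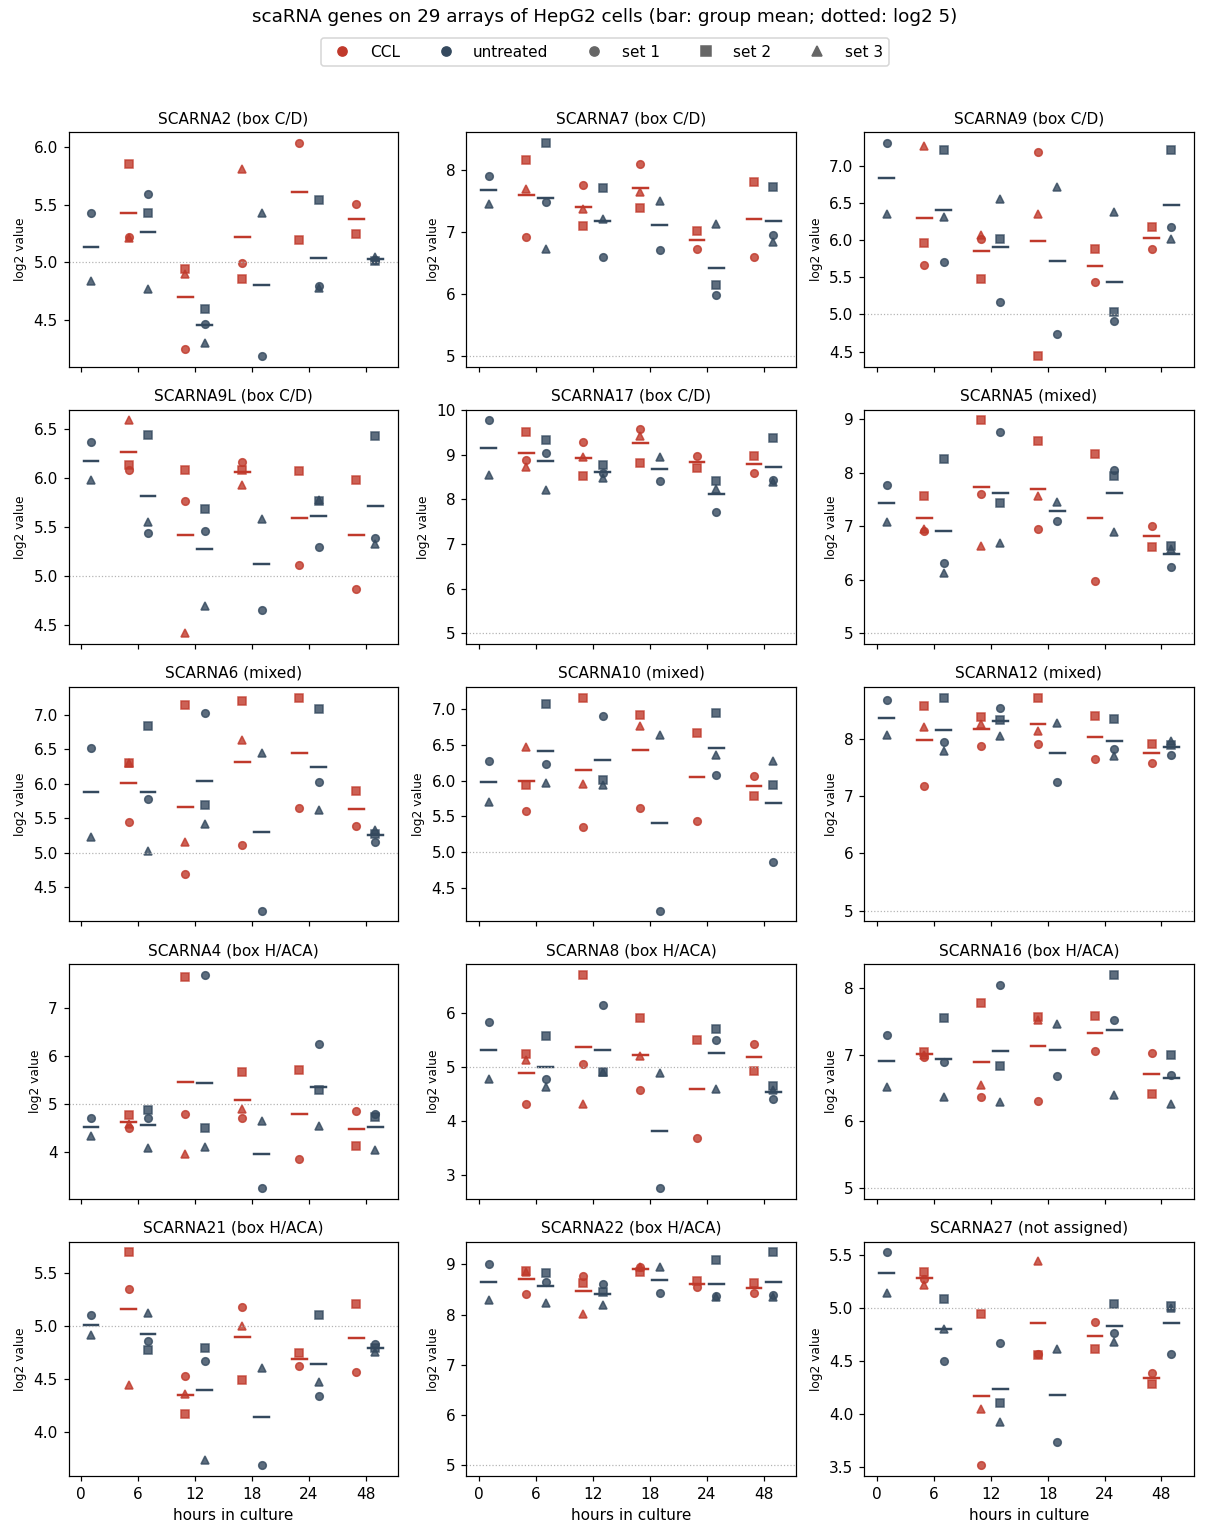
Deposited log2 values of the 15 scaRNA genes (vertical axes, each its own range) by hours in culture, with CCL arrays left of untreated arrays, marker shapes for sets 1 to 3, bars for group means and a dotted line at log2 5. The groups overlap for most genes and times, and single arrays of SCARNA4, SCARNA8 and SCARNA6 lie far from the others of their group.

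Among the other box C/D members, SCARNA7, a guide for the U1 small nuclear RNA, differed by 0.28 ± 0.20 (log2, SE), and SCARNA9L by 0.25 ± 0.19. SCARNA9, a guide for U2 RNA, differed by -0.03 ± 0.28. SCARNA9 and SCARNA9L are related copies, and probes for one may also read the other. SCARNA17, SCARNA2 and SCARNA7 had higher CCL means at all 5 times. The share of all genes doing so was not counted, and at 18 h alone 5679 of 6529 genes were higher.

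The mixed members differed by 0.27 ± 0.31 for SCARNA6, 0.13 ± 0.29 for SCARNA5, 0.06 ± 0.25 for SCARNA10, a guide for the U5 small nuclear RNA, and 0.03 ± 0.16 for SCARNA12. SCARNA6 was 0.04 without the untreated 18 h array of set 1 and 0.50 without that of set 3. Of the box H/ACA members, SCARNA8, a U2 guide, differed by 0.26 ± 0.27 and SCARNA21 by 0.21 ± 0.15. SCARNA8 was 0.05 and 0.47 without these same arrays. SCARNA4, also a U2 guide, differed by 0.12 ± 0.36, SCARNA22, whose target is not known, by 0.06 ± 0.13, and SCARNA16 by 0.00 ± 0.22. SCARNA27 differed by 0.10 ± 0.14. The 95% intervals of 13 of the 15 members included 0, and over the 15 they reached from -0.61 to 0.91. A member that was not called may still differ between the arms by an amount inside its interval.

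**Figure D2:**
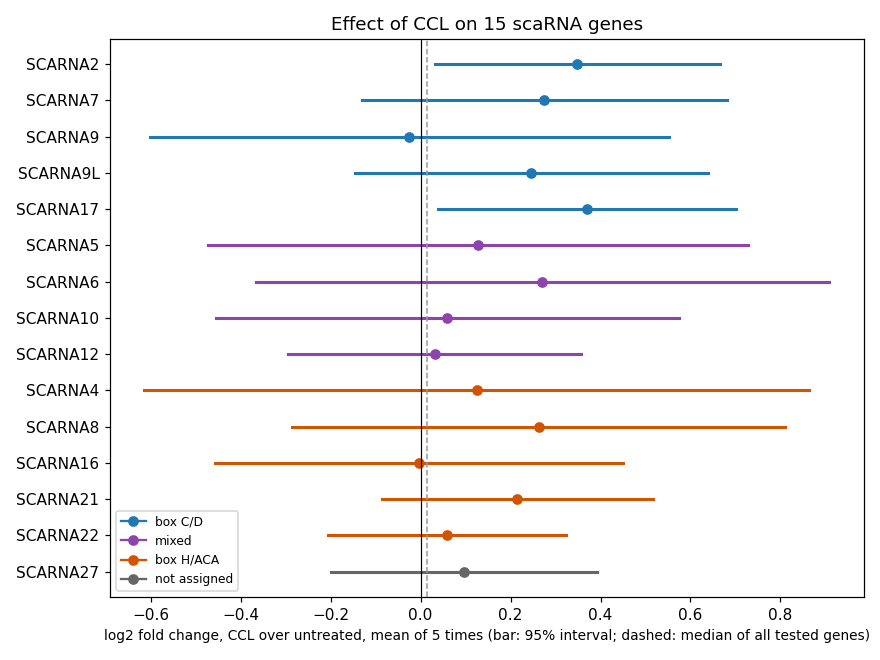
Log2 fold change of each scaRNA gene, CCL over untreated, as the mean of 5 times (horizontal axis; points with 95% intervals from limma), coloured by box class, with a dashed line at the median of all tested genes. The intervals of SCARNA17 and SCARNA2 lie above 0 and the other 13 include it.

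By box class, the median log2 difference in the mean of the 5 times was 0.28 over the 5 box C/D genes, of which 4 were higher, 0.09 over the 4 mixed genes, all higher, and 0.12 over the 5 box H/ACA genes, of which 4 were higher. The median was 0.13 over the 15 members and 0.01 over all 6529 genes, of which 3399 were higher. At 24 h the medians were 0.46 for box C/D, -0.17 for mixed and -0.05 for box H/ACA genes, against 0.04 for all genes. At 48 h they were 0.03, 0.28 and 0.06, against -0.26 for all genes. After quantile normalization the 48 h medians were 0.19, 0.55 and 0.30, against -0.05 for all genes, and the 24 h medians 0.40, -0.24 and -0.11, against 0.00. With 4 or 5 genes a class, none of them called, these medians are given without a test.

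At 18 h all 15 members had higher CCL means, as did 5679 of 6529 genes. SCARNA8 had 4.58, 5.91 and 5.20 in CCL cells, against 2.76 and 4.88 in untreated cells (sets 1 and 3), a log2 difference of 1.41 ± 0.62 (SE; limma adjusted p = 0.121). SCARNA9L had 6.16, 6.08 and 5.93 in CCL cells, against 4.65 and 5.58 in untreated cells, a difference of 0.94 ± 0.45 (adjusted p = 0.144). The untreated array of set 1 was the lowest in both genes, and it is the array with the lowest median of all 29. Without it the difference of SCARNA8 was 0.35 and that of SCARNA9L 0.48, and without the other untreated array, of set 3, they were 2.47 and 1.41. After quantile normalization of all arrays the median of all genes at 18 h was 0.00 and that of the 15 members 0.21, against 0.41 and 0.60 on the deposited values.

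Groups without overlap were few. SCARNA27 was the 1 member with all CCL arrays above all untreated arrays at 6 h, where 6.23% of all genes were so placed, with 5.28, 5.34 and 5.22 in CCL cells against 4.50, 5.08 and 4.81 in untreated cells. At 48 h it was the 1 member placed the other way, as 29.5% of all genes were, with 4.39 and 4.29 in CCL cells against 4.56, 5.02 and 5.00 in untreated cells. Its effect at these times had opposite signs, but the limma F-test for a difference between the 5 times did not call it (adjusted p = 0.451), nor any other member, and called 0.0153% of all genes. SCARNA4 and SCARNA9L were apart upward at 18 h (32.5% of all genes), SCARNA17 at 24 h (13.9%), and SCARNA2, SCARNA6 and SCARNA8 at 48 h (10.3%). No member was apart upward at 12 h, as 11.8% of all genes were, and none downward at 6, 12, 18 or 24 h, as 13.8%, 21.4%, 2.56% and 5.39% were.

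In untreated cells limma called 0 of 15 members against the 2 arrays of 0 h at 6, 12, 18, 24 or 48 h, while 0.23% of all genes were called at 12 h and 0% at each other time. At an unadjusted p under 0.05, 0, 1, 4, 3 and 0 members passed, against 0.705%, 12.2%, 10.6%, 4.9% and 1.26% of all genes. SCARNA27 had the lowest adjusted p, 0.138, with a log2 difference of -1.10 ± 0.34 (SE) at 12 h against 0 h. SCARNA17, SCARNA7 and SCARNA9, all box C/D, were those at 24 h, with -1.03, -1.26 and -1.39. These comparisons share the 0 h arrays.

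By RefSeq spans, 14 of the 15 members lie within another gene, and 8 of them within 7 hosts that were tested. The strand of host and member was not compared. Of the hosts, KPNA4, an importin that holds SCARNA7, rose under CCL in the mean of the 5 times (log2 difference 0.49 ± 0.12 SE, limma adjusted p = 0.00525). ATG16L1, an autophagy gene that holds SCARNA5 and SCARNA6, rose by 0.31 ± 0.10 (adjusted p = 0.0245), and was not called with array weights (adjusted p = 0.126) or without the CCL 24 h array of set 2 (adjusted p = 0.0689). CEP295, a centriole gene that holds SCARNA9, fell by 0.46 on the log2 scale (SE 0.17, adjusted p = 0.0458), a call lost in 23 of 36 alternatives. NSD2, a histone methyltransferase gene that holds SCARNA22, was called only at 48 h (-0.80 ± 0.25, adjusted p = 0.0494), and that call was lost in 10 of 13 alternatives, with a difference of -0.24 without the CCL 48 h array of set 1. KHDC4, PHB2 and SNHG20, the hosts of SCARNA4, SCARNA12 and SCARNA16, were not called in the mean.

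KPNA4 and SCARNA7 show how a host and its scaRNA compare array by array. At 18 h KPNA4 had 7.41, 7.35 and 8.13 in CCL cells, against 5.97 and 6.77 in untreated cells, so that the groups were apart. SCARNA7 had 8.10, 7.39 and 7.64 in CCL cells, against 6.71 and 7.51 in untreated cells, which overlapped. The effect on SCARNA7 less that on KPNA4 was -0.21 in the mean of the 5 times (permutation test of the arm labels within times, two-sided, p = 0.329, adjusted over 8 pairs 0.738).

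None of the 8 differences between a scaRNA and its host passed this permutation test after adjustment; the lowest p was 0.0836 (adjusted 0.538), for SCARNA9, which was 0.44 above CEP295. The member and its host had the same sign of effect in 5 of 8 pairs. Across the 8 pairs the effects had r = 0.685 on the deposited values, given as a description because 2 pairs share ATG16L1 and genes are not independent replicates. Within groups, the deviations of a member and its host over the 29 arrays had r from -0.27 (SCARNA16 and SNHG20) to 0.63 (SCARNA9 and CEP295) on the deposited values. On quantile-normalized values, those used for pairs of members, they ran from -0.39 to 0.48 for the same pairs, and SCARNA7 with KPNA4 had -0.09, against 0.20 on the deposited values.

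**Figure D3:**
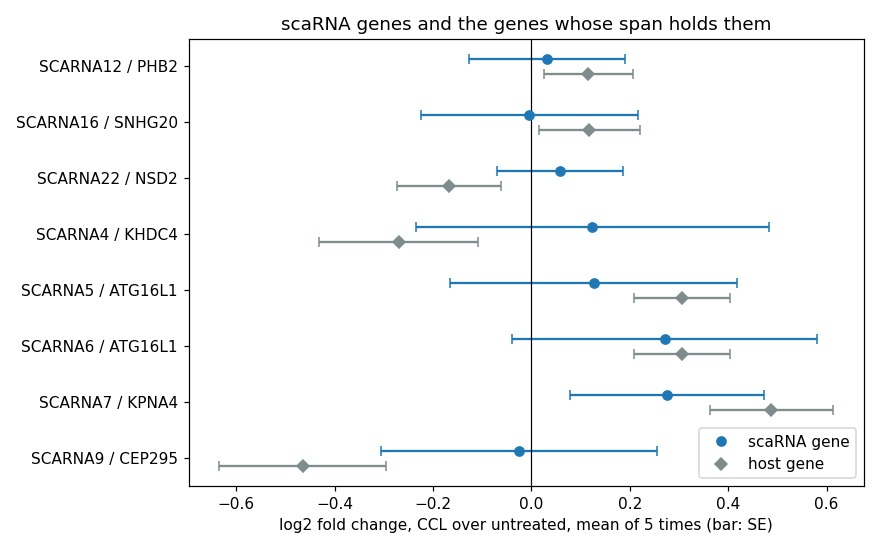
Log2 fold change, CCL over untreated, mean of 5 times (horizontal axis; bars are SE from limma), of 8 scaRNA genes (circles) and of the gene whose RefSeq span holds each (diamonds). The SE bars of all 7 hosts lie clear of 0, as does that of SCARNA7, while those of the other 7 scaRNA genes include it.

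Some members, most of them mixed or box H/ACA genes, were high on the same arrays within groups. SCARNA4, a box H/ACA gene, had 4.80, 7.64 and 3.96 in CCL cells at 12 h, against 7.69, 4.50 and 4.11 in untreated cells. SCARNA8, another, had 5.06, 6.70 and 4.32 against 6.14, 4.91 and 4.91 on the same arrays, and the mixed gene SCARNA5 had 7.61, 8.98 and 6.62 against 8.76, 7.44 and 6.69. In all 3 genes the CCL array of set 2 and the untreated array of set 1 were the high ones. The box C/D gene SCARNA7 had 7.76, 7.09 and 7.37 in CCL cells against 6.60, 7.71 and 7.21 in untreated cells, and was lowest on those 2 arrays. The split did not hold for every member. On that CCL array the box C/D genes SCARNA17 and SCARNA9 were also lowest, but SCARNA2 (4.95) and SCARNA9L (6.08) were highest. The box H/ACA genes SCARNA22 and SCARNA21 were not highest there.

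Each member's deviations from its group means, on quantile-normalized values, were correlated over the 29 arrays for all 105 pairs, with p-values from 100000 permutations of arrays within groups, two-sided and adjusted over the pairs. The correlation was added after the values had been seen, and so was the pooling of mixed with box H/ACA genes below. Mixed genes carry C/D boxes as well. By Pearson's r, 31 pairs passed, all positive. Among the 9 mixed and box H/ACA genes 25 of 36 pairs passed, with a median r of 0.63. Of 45 pairs of a box C/D gene with one of these 9, 2 passed, with a median r of 0.09. Within the classes the median r was 0.74 for mixed, 0.475 for box H/ACA and 0.36 for box C/D genes. Between mixed and box H/ACA genes it was 0.588. The box H/ACA gene SCARNA21 stood outside the block of the 9, with r near 0 with most of the others. Both passing pairs of a box C/D gene with one of the 9 held the box H/ACA gene SCARNA22. It had r = 0.691 with SCARNA17 and 0.669 with SCARNA9L, while its highest r among the 9 was 0.582, with SCARNA16. The box C/D gene SCARNA9L had r from 0.335 to 0.669 with each of the 9 but SCARNA21. Within box C/D, 2 of 10 passed: SCARNA17 with SCARNA7 (r = 0.717) and SCARNA7 with SCARNA9 (r = 0.599). Over all pairs of tested genes the median r was 0.02, and 8.48% exceeded 0.5, against 33.3% of the members' pairs. The permutation test was not run on pairs of other genes, so the counts that passed have no share of all pairs beside them. Arrays were permuted within groups without regard to set. The difference between classes was not tested.

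**Figure D4:**
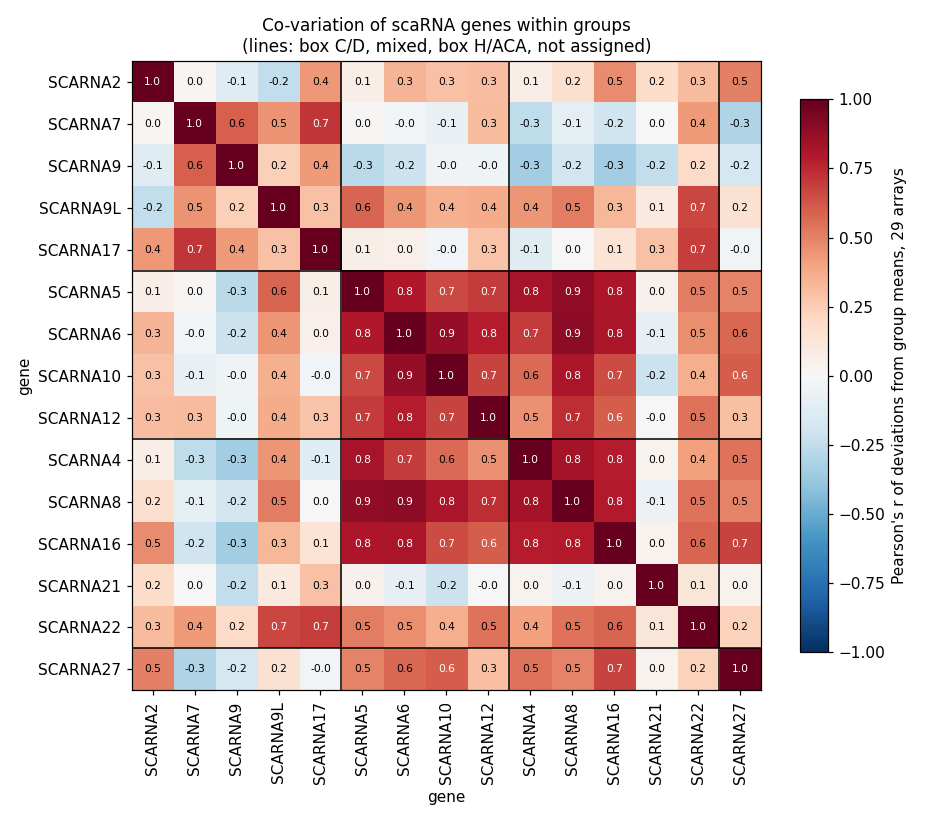
Pearson's r (colour and printed value) between the deviations of scaRNA genes from their group means over 29 arrays, with lines between box C/D, mixed, box H/ACA and unassigned genes. The mixed and box H/ACA genes other than SCARNA21 form a block of mostly high r, while most box C/D genes have lower values with that block. Taking mixed with box H/ACA genes was chosen after the values had been seen. SCARNA22, in that block, has its highest r with the box C/D genes SCARNA17 (0.691) and SCARNA9L (0.669).

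SCARNA6 and SCARNA8 had the highest r, 0.892 (permutation p adjusted over 105 pairs 0.00147; Spearman's rho 0.861, adjusted 0.00168). It was 0.877 without the 2 arrays farthest from the median of SCARNA6, 0.875, 0.917 and 0.835 within sets 1, 2 and 3, and 0.911 on the deposited values. They have different RefSeq hosts, ATG16L1 and HAUS6. SCARNA5 and SCARNA6, both within ATG16L1, had r = 0.799 (adjusted 0.00408; rho 0.764, adjusted 0.00453; 0.747 without the 2 farthest arrays), and 0.733, 0.850 and 0.785 within the sets. SCARNA7 and SCARNA8 had r = -0.0893 (adjusted 0.821; rho -0.147, adjusted 0.655; -0.263 without the 2 farthest arrays).

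**Figure D5:**
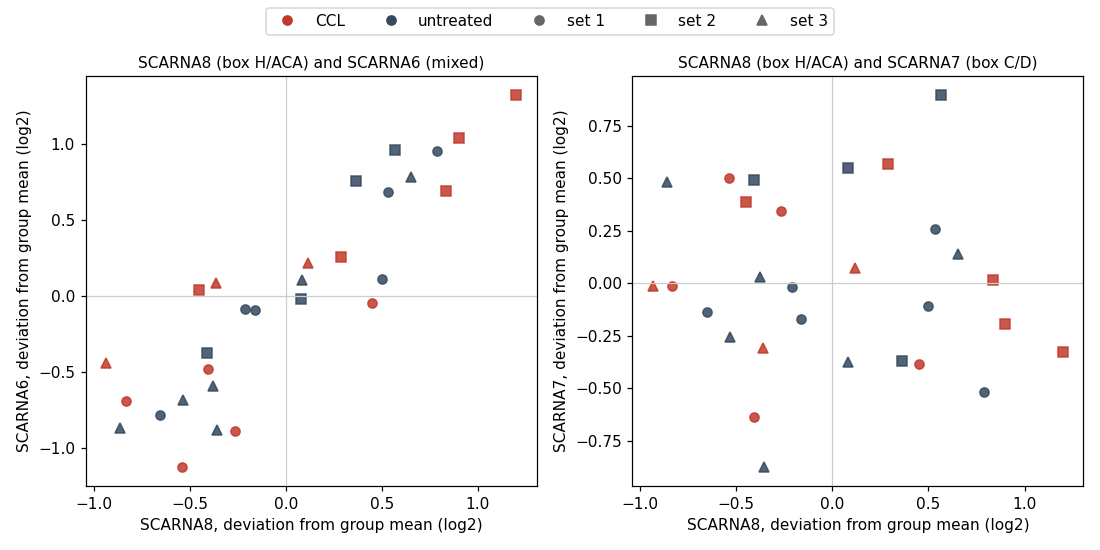
Deviations from the group mean (log2, quantile-normalized) of SCARNA8 (horizontal axes) against SCARNA6 on the left and SCARNA7 on the right, 1 point per array, coloured by arm with shapes for sets. The left points follow a rising line (r = 0.892) and the right ones do not (r = -0.0893).

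Levels were also compared between sets. In a limma F-test of the set terms, also added after the values had been seen, 5 of 15 members were called, a share near the 38.1% of all genes: SCARNA5, SCARNA6, SCARNA10, SCARNA12 and SCARNA9L. SCARNA5 was 0.75 higher in set 2 than in set 1 on the log2 scale, and SCARNA6 0.97 higher. All 15 members were higher in set 2 than in set 1, and 14 were lower in set 3 than in set 2, SCARNA9 being the exception. These directions, on the deposited values, were not counted over all genes, so they cannot be read as a trait of the members. The untreated 18 h, CCL 6 h and CCL 48 h arrays of set 1 had medians of 2.29, 2.65 and 2.75, the lowest of their groups. The part of array scale in these directions was not tested. The part of sets in the pairwise r was not tested beyond the values within sets given above.

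Transcripts of the proteins that bind, build and trim these RNAs were counted by lists chosen with earlier results in view. Of the box C/D protein genes FBL, NOP58 and SNU13, none was called in the mean of the 5 times, nor was any of the 5 box H/ACA protein and cofactor genes tested (NHP2, NOP10, GAR1, NAF1 and SHQ1) or of 6 assembly factors, while 13.6% of all genes were called higher and 11% lower. Of 5 Cajal body genes 1 fell, TGS1, which makes the trimethyl cap (log2 difference -0.33 ± 0.11 SE, limma adjusted p = 0.0347), and COIL, the coilin gene, had 0.16 ± 0.11 (adjusted p = 0.312). Of 9 genes of release and trimming 1 fell, the exosome gene EXOSC9 (-0.43 ± 0.14, adjusted p = 0.0307). Of 5 genes of ribosomal RNA synthesis 2 rose, RRN3, a factor of RNA polymerase I (0.40 ± 0.11, adjusted p = 0.00702), and BOP1 (0.36 ± 0.11, adjusted p = 0.0221). UPF1 and UPF2, of nonsense-mediated decay, were not called.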

How the data were processed

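Total RNA of HepG2 cells was hybridized to 29 Affymetrix HuGene 2.0 ST arrays. The authors deposited log2 values for 53617 probe sets. Per the submitters' processing notes, the tools were RMA and Affymetrix Expression Console 1.1. Since array medians ran from 2.29 to 3.39, RMA was probably not run on all arrays at once. This was not tested, and the grouping of arrays in RMA is not given in the sources used here. Depth is unknown for arrays, and their number limits the precision. Probe sets were named from the platform's probe table (16098 with 1 symbol), and the probe set of highest mean stood for each of 14884 genes. The 6529 genes that exceeded log2 5 on 2 or more arrays were fitted with limma 3.58.1 in R 4.3.3, with 1 mean per group, and adjusted by the Benjamini-Hochberg method at 0.05. The fit was tested on simulated data. Hosts and the start window came from RefSeq GRCh38.p14 by span; the table used gives no strand, so the planned match on strand was not made. Correlations used Python 3.11.15 with numpy 2.4.6. Named genes are all members, the hosts tested and genes of the lists. The members, lists, box classes and comparisons were chosen with earlier results of these data known. Co-variation, the host permutation test, the set F-test and the motifs were added after seeing values. Alternatives were quantile normalization, median subtraction, other filters, the mean of probe sets, only the compared arrays, array weights, the set number as a block and leaving out each array. Same-numbered arrays of the 2 arms correlated between -0.07 and 0.44, with 9 of 12 pairs above 0.1. In groups of 2 arrays the deviations mirror each other, so those r are not independent. The labels state no pairing, and the main fit left the set number out. With the set number as a block 2114 of all genes were called in the mean of the 5 times, against 1606 without it.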

Additional observations from a re-analysis of the deposited data

How the results depend on the processing

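No member was called at any time or in the mean under quantile normalization, median subtraction, other filters, the mean of probe sets, array weights, only the compared arrays or, for the mean, without the 6 arrays of distant median (added after seeing the data). The set number as a replicate block, although not an established pairing, also gave 0 members in the mean; there SCARNA17 was 0.317 (adjusted p = 0.119) and SCARNA2 0.341. Leaving out 1 array in turn gave 0 to 7 members at 18 h, 7 without the untreated 18 h array of set 3, where 1 untreated array remained, was assumed to vary like the other groups, and 2647 of 6529 genes were called (40.5%), and 0 to 1 in the mean: SCARNA2 without that array (0.472, limma adjusted p = 0.0194) or without the CCL 24 h array of set 2 (0.432, 0.0448), and SCARNA17 without the untreated 48 h array of set 2 (0.434, 0.0466). Effects near 0 changed sign. Under array weights, a fit that stopped before its convergence tolerance, SCARNA10 was -0.0525, SCARNA12 -0.0305, SCARNA22 -0.0797 and SCARNA9 0.0186. Under the replicate block SCARNA12 was -0.0168, SCARNA22 -0.00143, SCARNA4 -0.0199, SCARNA5 -0.0381 and SCARNA9 0.0569. Quantile normalization gave SCARNA12 -0.0143 and SCARNA22 -0.000997, and median subtraction SCARNA12 -0.014. Without the 6 arrays SCARNA10 was -0.12 and SCARNA27 -0.0912. Leaving out 1 array gave SCARNA10 -0.185 to 0.304, SCARNA12 -0.0722 to 0.135, SCARNA16 -0.102 to 0.0951, SCARNA4 -0.0928 to 0.35, SCARNA5 -0.109 to 0.363 and SCARNA9 -0.223 to 0.173. Without a change of sign, it gave SCARNA6 0.0416 to 0.5, SCARNA8 0.05 to 0.474, SCARNA2 0.225 to 0.472, SCARNA7 0.154 to 0.396, SCARNA9L 0.136 to 0.357, SCARNA21 0.124 to 0.306, SCARNA22 0.00711 to 0.117, SCARNA27 0.00882 to 0.185 and SCARNA17 0.304 to 0.434. The cause was not tested. Over all genes, the calls at 48 h were 428, against 0 with only the compared arrays and 903 with the block; at 18 h they were 815, against 13 with array weights and 1571 with the block; at 6 h 20, against 296 with array weights; at 12 h 81, against 2030 with array weights; at 24 h 197, against 45 with only the compared arrays and 525 with the block. Groups of 2 or 3 arrays limit what these comparisons can detect.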

Other observations

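The genes whose within-group deviations were most like the mean deviation of the 9 mixed and box H/ACA members, a search added after seeing the data and given with no test, were RMRP, the RNA of RNase MRP (r = 0.732), the small non-coding RNA genes SNAR-B1 (0.727) and SNAR-H (0.712), and NOP16, a nucleolar protein gene (0.704), over 29 arrays. RUVBL2, an assembly factor of these particles, was among the first 10 (0.678). Of 8 tested genes that RefSeq types as snRNA, 6 exceeded 0.5, as did 131 of 6130 protein-coding genes, and the RNase P RNA had 0.56. These 6 include SNAR-B1, SNAR-H and SNAR-C1 (0.689), genes of 1 family, so they are not independent cases. Whether probes of one SNAR gene also read another was not tested. For the 5 box C/D members none of the 8 exceeded 0.5. The leading genes there were VPS13A (0.817), HNRNPA1 (0.712), a splicing regulator, and SNRNP70 (0.676), a U1 particle protein gene. All these values share arrays, sets and normalization, whose part was not tested.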
